A study of Rattus norvegicus with 47 samples.

Results

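Mmp2, Mmp12 and Adam8 are 3 metalloproteinase genes among the 32545 genes counted in rat kidney cortex. They were taken by name after the differences between LiAM, Li and Control had been seen in these same libraries, and their transcripts were followed in every group and at every time. Each name led to 1 Ensembl gene: ENSRNOG00000016695 for Mmp2, ENSRNOG00000030187 for Mmp12 and ENSRNOG00000017897 for Adam8. Male Wistar rats were studied for 14 days, 28 days or 6 months. LiAM rats received lithium (60 mM lithium carbonate in chow per the labels) together with amiloride (0.2 mM in the drinking water), which blocks the epithelial sodium channel. Li rats received lithium alone, and Control rats received plain chow. Rats on lithium also had a salt block. In the 14- and 28-day studies amiloride was given from the start of lithium, whereas in the 6-month study it was added later. The 47 libraries were 6 LiAM, 6 Li and 6 Control at 14 days, 5 LiAM, 6 Li and 6 Control at 28 days, and 4 labelled LiAM, 4 labelled Li and 4 labelled Control at 6 months.

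Metalloproteinases are zinc-dependent enzymes that cut extracellular matrix and cell surface proteins. Mmp2 is gelatinase A, a secreted enzyme that degrades denatured collagens and basement membrane collagen and is made by mesenchymal cells and by tubule epithelium. Mmp12 is macrophage elastase, known for the breakdown of elastin and for its production by macrophages. Adam8 is a membrane-anchored disintegrin and metalloproteinase known from leukocytes, which sheds adhesion molecules. Tissue inhibitors of metalloproteinases, such as Timp1, block many of these enzymes, so transcript levels do not give enzyme activity.

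The upstream sequences are shown because the 3 genes were compared for shared patterns across the same treatments. RefSeq promoters matched 2 of the 3 genes, Mmp12 and Adam8. The 250 bases before each start site are printed 5′ to 3′ on the strand of the gene, in build GRCr8, and capitals mark letters of the AP-1 motif or the TATA box. Mmp12 lies on the plus strand at chr8:12866402-12866651 and Adam8 on the minus strand at chr1:204218323-204218572.
Mmp12: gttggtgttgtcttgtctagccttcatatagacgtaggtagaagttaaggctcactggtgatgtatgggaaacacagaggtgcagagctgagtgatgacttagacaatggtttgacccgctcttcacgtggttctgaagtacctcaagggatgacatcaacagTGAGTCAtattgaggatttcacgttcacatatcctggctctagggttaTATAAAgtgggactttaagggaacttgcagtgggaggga
Adam8: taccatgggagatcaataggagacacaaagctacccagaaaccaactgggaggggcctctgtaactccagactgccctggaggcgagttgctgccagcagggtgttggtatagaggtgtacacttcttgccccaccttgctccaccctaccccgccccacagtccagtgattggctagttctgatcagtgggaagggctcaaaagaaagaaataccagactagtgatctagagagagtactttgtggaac
An AP-1 motif (TGANTCA, either strand) was found in Mmp12, where TGAGTCA begins at base -87 from the start site, and a TATA box (TATAAA) begins at base -39. Neither motif was matched in the Adam8 window, and the NF-kB motif was matched in neither gene. The search covered both strands between 250 bases before and 50 bases after the start site. Over all 33469 RefSeq promoters of that length, the shares that hold a match were 7.33% for AP-1, 14.2% for the TATA box and 5.37% for NF-kB. These matches are descriptions of letters and were not set against binding data.

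Depth, as the summed count of a library, lay between 10399818 and 15618395 in the 14-day study, between 14779709 and 17554304 in the 28-day study and between 21245870 and 25415685 in the 6-month study. The fits leave out 3 libraries that were absent from the set behind the authors' tables: LiAM 2 at 14 days, labelled Li 4 and labelled LiAM 4 at 6 months. The left-out LiAM 2 held 1719 CPM (counts scaled to a common library total) of 3 adipose markers, against 15.6 to 22.0 CPM in the other LiAM libraries of that time. At 6 months the authors' tables come back only when labelled Li is their LiAM, labelled Control their Li and labelled LiAM their control. Aqp2, the water channel that lithium is known to lower, was at 75.2 to 88.9 CPM in the libraries labelled Li and 19.5 to 33.7 CPM in those labelled Control, against 143 to 229 CPM in those labelled LiAM. In the shorter studies Aqp2 was lowest in Li, at 11.1 to 26.5 CPM after 14 days and 11.5 to 28.9 CPM after 28 days, against 161 to 217 CPM and 103 to 186 CPM in Control. At 6 months Aqp2 was thus lowest in the group that the tables name Li and highest in the group that they name control. This is the order of the shorter studies, and the labels do not give it. The 6-month groups are still named by label here, and each passage on them gives the name in the tables. Proximal tubule markers summed to between 7972 and 13001 CPM over all fitted libraries, and podocyte markers were detected in every group.

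Because the genes were chosen with their results known, their levels and fold changes are given as a description, with no p-value. Levels are CPM on scaled library totals, and each gene is compared only with itself, since CPM does not allow for transcript length. In whole tissue, fewer cells of a type and less RNA per cell cannot be told apart. Over the fitted libraries the raw counts were 317 to 3250 for Mmp2, 0 to 101 for Mmp12 and 5 to 108 for Adam8, so Mmp12 and Adam8 rest on few reads.

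Mmp2 was higher with lithium than in Control at every time, by 1.25 to 1.76 on the log2 scale, and its mean was higher again with lithium and amiloride together. At 6 months this holds with the groups named as in the tables and not as labelled. At 14 days the fitted LiAM libraries 1, 3, 4, 5 and 6 held 144.0, 144.7, 112.6, 123.7 and 135.0 CPM. Li libraries ranged between 84.8 and 115.1 CPM (median 94.6), and Control libraries between 29.2 and 43.3 CPM (median 34.7). The means were 132.0 ± 13.8 CPM in LiAM (SD, n = 5), 96.6 ± 9.97 CPM in Li (n = 6) and 35.4 ± 5.01 CPM in Control (n = 6). All LiAM and all Li libraries lay above every Control library, while LiAM 4 fell inside the Li range. The log2 fold changes were 0.44 (SE 0.09) for LiAM against Li, 1.44 (SE 0.09) for Li against Control and 1.88 (SE 0.10) for LiAM against Control. The left-out LiAM 2 held 84.6 CPM, below every Li library.

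At 28 days the Mmp2 levels of LiAM libraries 1 to 5 were 106.2, 133.3, 140.0, 108.1 and 121.7 CPM. Li libraries spread from 53.6 to 104.0 CPM with a median of 74.6, and Control libraries from 17.2 to 41.1 CPM with a median of 34.9. The 3 groups did not overlap, with means of 121.9 ± 15.0 CPM in LiAM (SD, n = 5), 77.7 ± 18.5 CPM in Li (n = 6) and 32.7 ± 8.96 CPM in Control (n = 6). The Li library nearest to LiAM, Li 1, also held 165 CPM of adipose markers, and the log2 fold change of LiAM against Li was 0.65 (SE 0.18) with it and 0.75 without it. Against Control the log2 fold change was 1.25 (SE 0.18) in Li and 1.89 (SE 0.19) in LiAM.

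At 6 months Mmp2 kept 3 separate levels. The libraries labelled Li 1, 2 and 3 (LiAM in the authors' tables) held 83.5, 123.5 and 82.1 CPM, and the left-out labelled Li 4 held 137.1 CPM. The libraries labelled Control 1 to 4 (Li in the tables) held 70.5, 67.9, 59.9 and 66.2 CPM. Those labelled LiAM 1, 2 and 3 (control in the tables) held 19.7, 17.4 and 21.9 CPM, with 15.7 CPM in the left-out labelled LiAM 4. No groups overlapped, with or without the left-out libraries. The log2 fold change was 0.53 (SE 0.13) for labelled Li against labelled Control, 1.76 (SE 0.14) for labelled Control against labelled LiAM and 2.29 (SE 0.15) for labelled Li against labelled LiAM. Labelled Li 2 set part of the first difference, which was 0.32 without it.

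**Figure D1:**
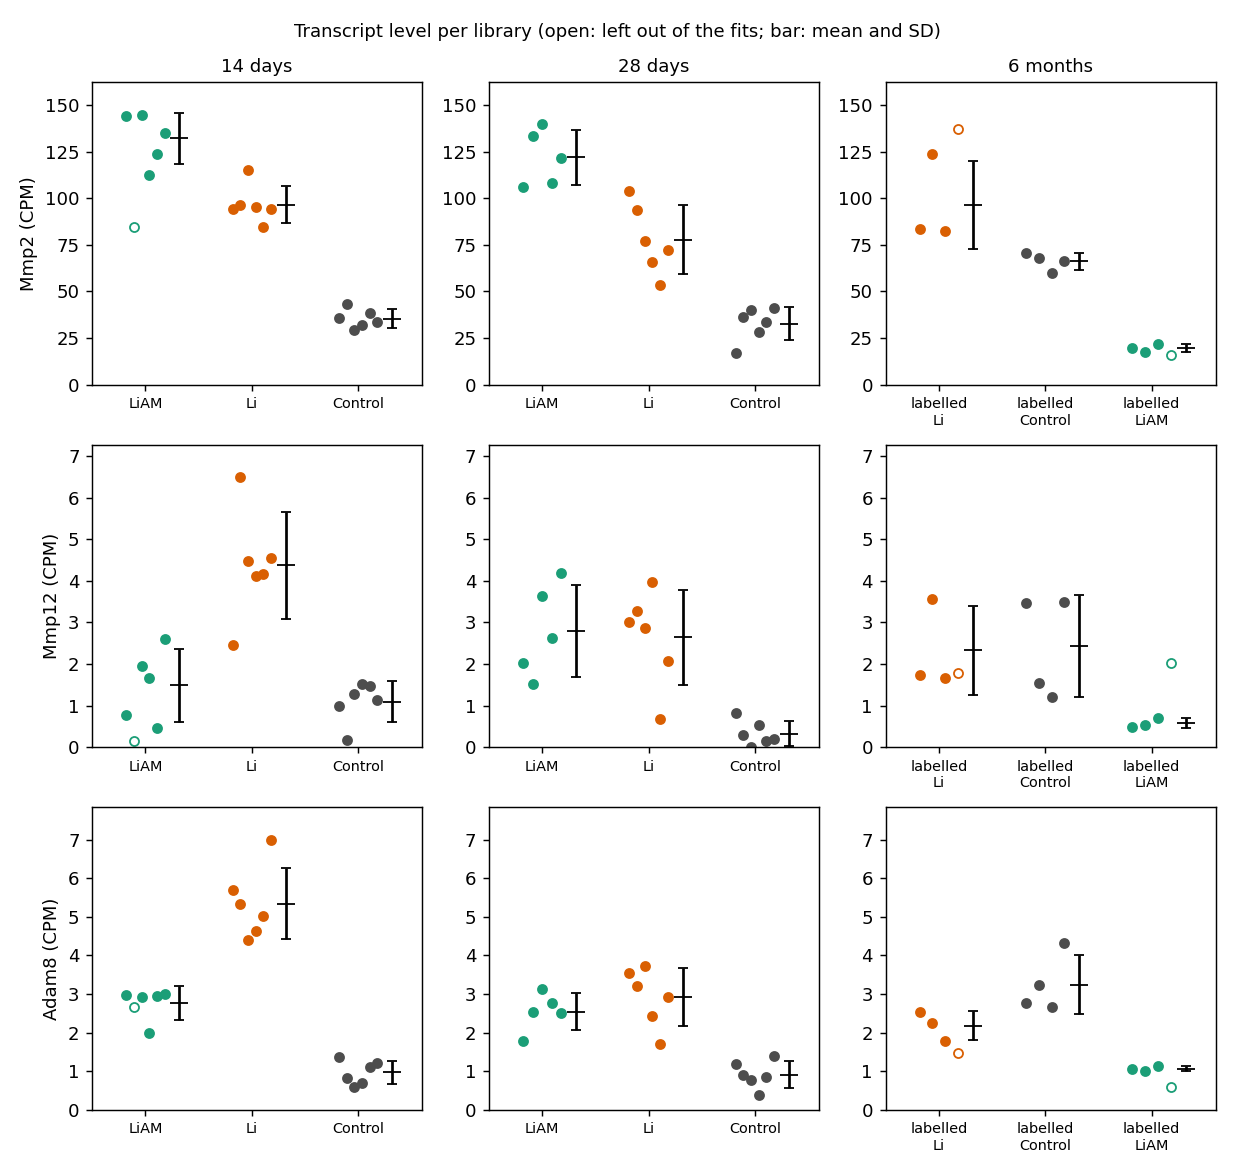
CPM of Mmp2, Mmp12 and Adam8 (rows) in each library of the 14-day, 28-day and 6-month studies (columns). Points are libraries, open points were left out of the fits, and bars are the mean and SD of the fitted libraries. Mmp2 was highest in LiAM at 14 and 28 days and in labelled Li (LiAM in the authors' tables) at 6 months, while the 14-day means of Mmp12 and Adam8 were highest in Li (4.37 and 5.35 CPM).

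Mmp12 followed another course. At 14 days it was highest in Li. LiAM libraries 1, 3, 4, 5 and 6 held 0.764, 1.96, 1.66, 0.457 and 2.61 CPM. Li libraries lay between 2.46 and 6.49 CPM (median 4.32), and Control libraries between 0.167 and 1.51 CPM (median 1.21). Every Li library exceeded every Control library, 4 of the 5 LiAM libraries lay below all Li libraries, and LiAM overlapped Control. The means were 1.49 ± 0.881 CPM in LiAM (SD, n = 5), 4.37 ± 1.29 CPM in Li (n = 6) and 1.09 ± 0.494 CPM in Control (n = 6). The log2 fold change was -1.55 (SE 0.36) for LiAM against Li, 1.99 (SE 0.37) for Li against Control and 0.45 (SE 0.42) for LiAM against Control. The left-out LiAM 2 had 2 reads, or 0.152 CPM.

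At 28 days LiAM and Li held similar Mmp12 ranges, both mostly above Control. Mmp12 stood at 2.02, 1.53, 3.63, 2.62 and 4.19 CPM in LiAM libraries 1 to 5, and at 0.682 to 3.97 CPM (median 2.94) in Li. Control libraries reached only 0.815 CPM, with a median of 0.248 CPM. In Control 3 no read was counted, where 3 reads would be 0.233 CPM, and 3 of the 6 Control libraries held 3 reads or fewer. LiAM and Li overlapped, with LiAM 5 alone above every Li library and means of 2.80 ± 1.10 CPM in LiAM (SD, n = 5) and 2.65 ± 1.14 CPM in Li (n = 6), and only Li 5 fell inside the Control range. The log2 fold change was 0.07 (SE 0.39) for LiAM against Li, 2.90 (SE 0.49) for Li against Control and 2.98 (SE 0.50) for LiAM against Control.

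After 6 months the Mmp12 levels of labelled Li 1, 2 and 3 (LiAM in the tables) were 1.74, 3.57 and 1.67 CPM. Labelled Control 1 to 4 (Li in the tables) held 3.47, 1.55, 1.202 and 3.48 CPM, and labelled LiAM 1, 2 and 3 (control in the tables) held 0.483, 0.546 and 0.713 CPM. The first 2 groups overlapped, with a log2 fold change of -0.08 (SE 0.39) that changed sign when single libraries were left out, and both lay above the fitted libraries labelled LiAM. The differences from labelled LiAM were 1.99 (SE 0.50) for labelled Li and 2.07 (SE 0.48) for labelled Control. They rested on the choice of libraries: the left-out labelled LiAM 4 held 2.01 CPM, and with all deposited libraries the log2 fold changes were 1.23 and 1.39 and neither passed the thresholds.

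Adam8 resembled Mmp12 at 14 days but stayed above Control under amiloride. LiAM libraries 1, 3, 4, 5 and 6 held 2.98, 2.91, 1.99, 2.94 and 2.99 CPM. Li libraries held 4.40 to 6.999 CPM (median 5.18), and Control libraries 0.598 to 1.36 CPM (median 0.970). The 3 groups were separate, also with the left-out LiAM 2 at 2.66 CPM, and had means of 2.76 ± 0.434 CPM in LiAM (SD, n = 5), 5.35 ± 0.933 CPM in Li (n = 6) and 0.970 ± 0.302 CPM in Control (n = 6). The log2 fold change was -0.96 (SE 0.17) for LiAM against Li, 2.44 (SE 0.19) for Li against Control and 1.48 (SE 0.20) for LiAM against Control.

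At 28 days the LiAM and Li levels of Adam8 overlapped. LiAM libraries 1 to 5 held 1.80, 2.52, 3.13, 2.78 and 2.50 CPM, and Li libraries 1.71 to 3.74 CPM (median 3.06), against 0.376 to 1.38 CPM (median 0.874) in Control. LiAM lay wholly inside the Li range, and both were above all Control libraries. The log2 fold change was -0.20 (SE 0.23) for LiAM against Li, 1.65 (SE 0.25) for Li against Control and 1.45 (SE 0.26) for LiAM against Control. At 6 months the libraries labelled Li 1, 2 and 3 (LiAM in the tables) held 2.53, 2.24 and 1.79 CPM of Adam8. Those labelled Control 1 to 4 (Li in the tables) held 2.76, 3.23, 2.67 and 4.32 CPM, and those labelled LiAM 1, 2 and 3 (control in the tables) held 1.06, 1.001 and 1.14 CPM. These groups did not overlap, with a log2 fold change of -0.59 (SE 0.20) for labelled Li against labelled Control, 1.61 (SE 0.22) for labelled Control against labelled LiAM and 1.02 (SE 0.23) for labelled Li against labelled LiAM.

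**Figure D2:**
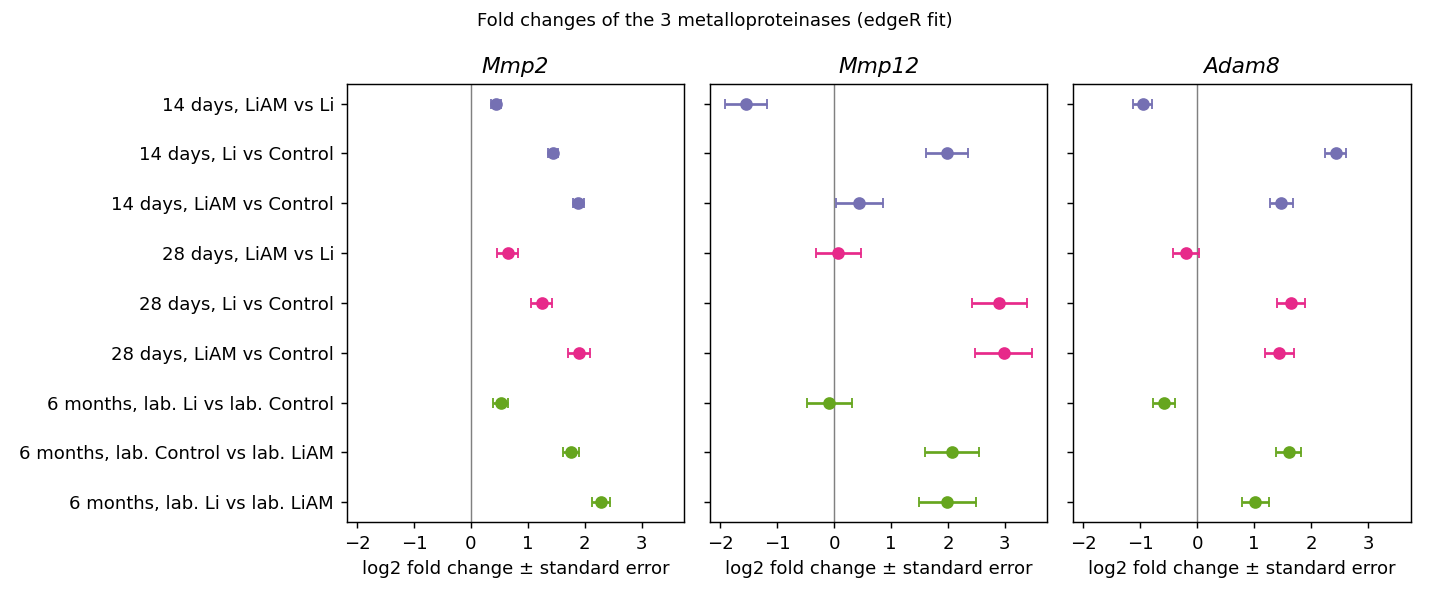
log2 fold change with its standard error for each gene (panels) in the 9 comparisons, first group over second, with labelled shortened to lab. at 6 months. The LiAM against Li differences of Mmp2 were positive at 14 and 28 days (0.44 and 0.65), while those of Mmp12 and Adam8 at 14 days were negative (-1.55 and -0.96).

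The thresholds of the study, a log2 fold change of 0.5 or more with an adjusted p below 0.05, were applied to all genes tested. All 3 genes were past them and higher in Li than Control at 14 days (8.49% of all genes were) and at 28 days (5.49%). In LiAM against Control 2 of the 3 were past and higher at 14 days (5.04% of genes), Mmp12 not, and all 3 at 28 days (9.82%). At 6 months all 3 were past and higher in labelled Control (Li in the tables) than labelled LiAM (control in the tables, 5.44% of genes) and in labelled Li (LiAM in the tables) than labelled LiAM (5.77%). For LiAM against Li at 14 days Mmp12 and Adam8 were past and lower (1.4% of genes were). Mmp2 was not past there. None of the 3 was past for LiAM against Li at 28 days (0.438% of genes in either direction) or for labelled Li against labelled Control at 6 months (1.99%), where Mmp2 passed under DESeq2 (0.54) and without labelled Control 1 (0.56). The genes were chosen on such values, so nothing is read from these counts. Mmp12 at 14 days no longer passed in LiAM against Li without Li 2, LiAM 1, LiAM 4 or LiAM 5, each in turn, with log2 fold changes of -1.40, -1.39, -1.59 and -1.32. Mmp2 in LiAM against Li at 28 days passed only without Control 1 (0.65).

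Most 28-day Control libraries differed from the treated libraries in composition. The mitochondrial share of reads was 15.8% to 22.7% in LiAM and 14.5% to 24.3% in Li, against 18.2% to 33.0% (median 31.9%) in Control. Control 1, at 18.2%, had the lowest Mmp2 and the highest Mmp12 of its group. Without it the log2 fold change of Li against Control was 1.11 for Mmp2, 3.47 for Mmp12 and 1.74 for Adam8. With mitochondrial genes left out of the counts the values were 1.24 for Mmp2, 2.90 for Mmp12 and 1.65 for Adam8.

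Macrophage markers were also higher in the groups with high Mmp12 at 14 and 28 days. The list of 12 had 10 genes with an identifier, and each was detected. At 14 days their summed level was 170 to 208 CPM in LiAM and 195 to 275 CPM in Li, against 108 to 200 CPM in Control. Of the 10, 6 passed the test and were higher in Li than Control, among them Itgam, an integrin of myeloid cells, with a log2 fold change of 1.08 (adjusted p = 0.0002434), beside 17.9% of genes with a symbol called in either direction. In LiAM against Li only Cd14 was past (1 of 10, beside 3.37%), at -0.66 (adjusted p = 0.01034). At 28 days 9 of 10 were higher in LiAM than Control (beside 24.7% of genes with a symbol) and 8 of 10 in Li than Control (beside 13.8%), with sums of 85.4 to 200 CPM in LiAM and 77.6 to 168 CPM in Li, against 53.5 to 124 CPM in Control. At 6 months only Csf1r, the macrophage colony-stimulating factor receptor, was higher (1 of 10), in both labelled Li (LiAM in the tables, 0.96, adjusted p = 0.003328, beside 12% of genes) and labelled Control (Li in the tables, 0.60, adjusted p = 0.02491, beside 11.3%) against labelled LiAM (control in the tables). T cell markers also rose in Li against Control at 14 days, with 5 of 6 past the test (beside 17.9%). Only Cd3e was lower in LiAM than Li there (-1.14, adjusted p = 0.01288), 1 of 6 beside 3.37%. At 28 days 2 of 6 T cell markers were higher in Li than Control (beside 13.8%) and 1 of 6 in LiAM than Control (beside 24.7%). None of these markers passed between LiAM and Li at 28 days (beside 0.703%) or in any comparison at 6 months (beside 3.16% to 12%). The part of either cell type in the Mmp12 level was not tested. Of 8 neutrophil markers only 2 had an identifier, S100a9 and Cxcr2, and their sum was at most 6.58 CPM.

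**Figure D3:**
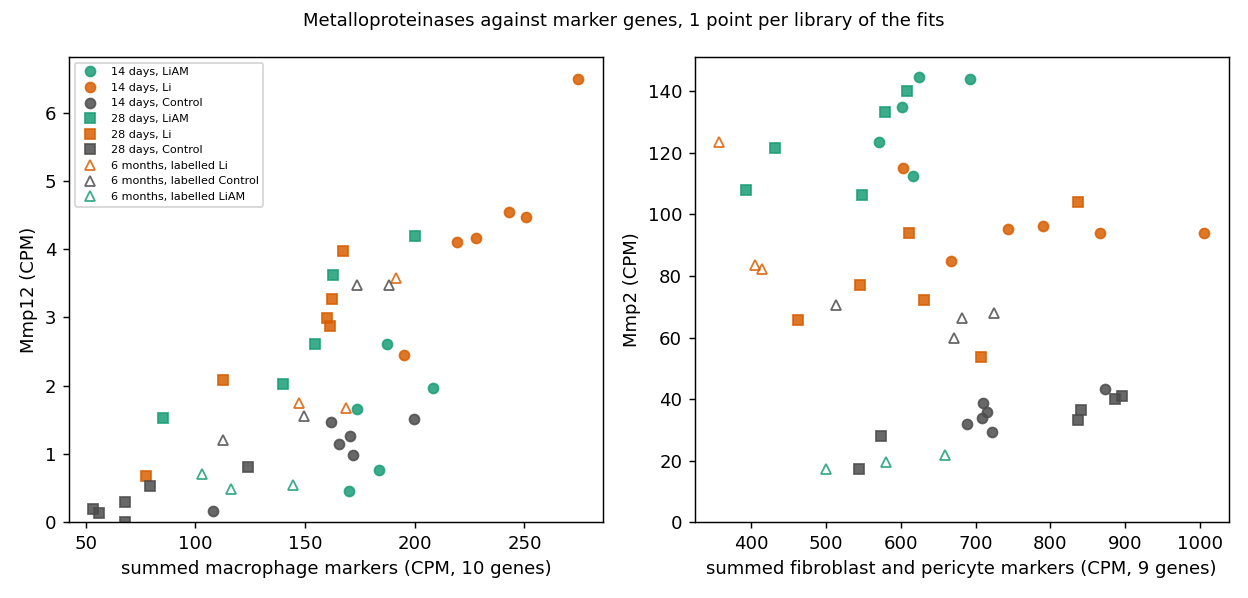
Mmp12 against the summed CPM of 10 macrophage markers (left) and Mmp2 against that of 9 fibroblast and pericyte markers (right), 1 point for each of the 44 fitted libraries, with colour for the group label and symbol for the study. The 14-day Li libraries held 2.46 to 6.49 CPM of Mmp12, with macrophage sums of 195 to 275 CPM, while the highest Mmp2 levels (144.7 CPM) did not stand at the highest fibroblast sums.

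Fibroblast and pericyte markers did not follow the order of Mmp2 in their summed level. For 9 genes with an identifier of 10 listed, the sum at 14 days was 570 to 693 CPM in LiAM and 603 to 1006 CPM in Li, against 689 to 873 CPM in Control. At 28 days it was 393 to 608 CPM in LiAM and 462 to 837 CPM in Li, against 544 to 895 CPM in Control, and 4 of 9 markers fell in LiAM against Control (beside 24.7% of genes with a symbol called in either direction), among them Col1a1, a chain of type I collagen, by 0.99 on the log2 scale (adjusted p = 0.01282). At 6 months the sum was 357 to 415 CPM in labelled Li (LiAM in the tables) and 514 to 725 CPM in labelled Control (Li in the tables), against 500 to 659 CPM in labelled LiAM (control in the tables). There 3 of 9 (beside 12%) were lower in labelled Li than labelled LiAM, where Mmp2 was higher. In labelled Control against labelled LiAM 2 of 9 (beside 11.3%) were higher, Dcn (0.57, adjusted p = 0.03031) and Postn (3.02, adjusted p = 0.008022). In Li against Control at 14 days 2 of 9 were higher and 1 lower (beside 17.9%): Postn, a matrix protein of activated fibroblasts (2.26, adjusted p = 0.00226), and Acta2 (0.80, adjusted p = 0.001033) were higher and Col1a1 was lower (-0.58, adjusted p = 0.003413). Postn was the only one of the 9 past in LiAM against Li at 14 days (-2.65, adjusted p = 0.007828, beside 3.37%).

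A list of tubular injury transcripts had 4 of 5 genes with an identifier. Havcr1, the kidney injury molecule, rose in Li against Control at 14 days (3.11, adjusted p = 0.0001309), and Lcn2 (1.86, adjusted p = 1.077e-05) and Spp1 (1.61, adjusted p = 0.0006703) rose with it (3 of 4, beside 17.9% of genes with a symbol). All 3 fell in LiAM against Li at that time (beside 3.37%), with log2 fold changes of -3.19, -1.56 and -2.31. Mmp12 and Adam8 were lower there too, while Mmp2 was higher (0.44). In LiAM against Control at 14 days none of the 4 passed (beside 12.5%), with Havcr1 at -0.07, while Adam8 stood at 1.48. At 28 days none of the 4 passed between LiAM and Li, with Havcr1 at -2.24 (adjusted p = 0.09978). In Li against Control at 28 days 2 of 4 were higher, Havcr1 (2.41) and Spp1 (1.02), and 1 was lower, Vcam1 (-0.70), beside 13.8%. In LiAM against Control at 28 days Havcr1 (0.17), Lcn2 (-0.13) and Spp1 (0.22) did not pass and Vcam1 was lower (-0.85), beside 24.7%. Mmp12 (2.98) and Adam8 (1.45) were higher there. At 6 months Havcr1 (-4.58, adjusted p = 0.02259) and Lcn2 (-1.69, adjusted p = 0.04347) were lower in labelled Li (LiAM in the tables) than labelled Control (Li in the tables), 2 of 4 beside 3.16%. Against labelled LiAM (control in the tables), Lcn2 (1.86, adjusted p = 0.01066) and Spp1 (1.53, adjusted p = 0.03682) were higher in labelled Control, 2 of 4 beside 11.3%. In labelled Li against labelled LiAM only Vcam1 passed and was lower (-0.56), 1 of 4 beside 12%. The part of tubular injury in the metalloproteinase levels was not tested.

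The libraries also allow the genes most like each metalloproteinase to be named. Pearson r was taken over the 44 fitted libraries on log2 CPM after removing each study's mean, among 8737 genes with a symbol. Since the libraries share groups, depth and tissue make-up, r is a description. For Mmp2 the closest were Pdlim1 (r = 0.96), Tubb2b (0.95), Vopp1 (0.95), Thbs3 (0.95) and Nbl1 (0.95). For Mmp12 they were Lcp1 (0.90), Nckap1l (0.88), Csf1r (0.87), Cyth4 (0.87) and Cdcp1 (0.87), of which Lcp1, Nckap1l and Cyth4 are known from blood cells. For Adam8 they were the tight junction gene Cldn4 (0.92), Pfkfb3 (0.92), Ppl (0.92), Cd44 (0.92) and Bves (0.91). After group means were also removed, r fell to 0.67 for Pdlim1, 0.76 for Lcp1 and 0.47 for Cldn4. Between the metalloproteinases r was 0.61 for Mmp2 and Mmp12, 0.77 for Mmp2 and Adam8 and 0.74 for Mmp12 and Adam8, and within groups -0.12, 0.30 and 0.17.

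The rest of the pathway was read from lists of other MMPs, ADAMs, inhibitors, activators and substrates. Of 62 listed genes 36 had an identifier, which the files give only for genes listed in at least 1 of the authors' comparison tables, and 34 were tested in each study. The other listed genes were not analysed here. Mmp7 and Adam11 had an identifier but too few reads for the tests within each study. Adam11 was tested only in the comparison of 28 with 14 days, where the listed genes were thus 35. Given that selection, the counts below stand beside the share of all genes with a symbol that passed.

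At 14 days 7 of 34 (20.6%) changed in Li against Control, 6 higher and 1 lower, beside 17.9% of genes with a symbol. Mmp14, the membrane enzyme that activates pro-Mmp2, rose to 47.5 ± 3.92 CPM in Li, against 30.5 ± 2.76 CPM in Control (SD, n = 6 each), a log2 fold change of 0.63 (SE 0.06, adjusted p = 8.193e-07). The inhibitor Timp1 rose to 13.4 ± 2.61 CPM in Li, against 6.24 ± 1.07 CPM in Control, a log2 fold change of 1.10 (adjusted p = 1.026e-05). The hyaluronan receptor Cd44 rose by 2.30 (adjusted p = 1.209e-09), and Plaur, the urokinase receptor, by 0.71 (adjusted p = 0.0181, lost without Li 6). Adam12 fell by 0.94 (adjusted p = 0.001482).

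LiAM against Li at 14 days gave 3 of 34 (8.82%), all lower, beside 3.37% of genes with a symbol. Timp1 stood at 6.63 ± 1.01 CPM in LiAM (n = 5) and 13.4 ± 2.61 CPM in Li (n = 6), with no overlap and a log2 fold change of -1.02 (SE 0.14, adjusted p = 0.0003849). Cd44 (-0.57, adjusted p = 0.01867) was also lower, but not without LiAM 4, 5 or 6. Mmp14 stood at 38.5 ± 0.884 CPM in LiAM and 47.5 ± 3.92 CPM in Li, a log2 fold change of -0.31 (adjusted p = 0.0117) that stayed below the fold threshold. Against Control, LiAM changed in 5 of 34 (14.7%, beside 12.5%), 2 higher and 3 lower, with Cd44 (1.72) higher and Adam12 (-0.75), Adam23 (-1.17) and Mmp28 (-1.14) lower, and Mmp28 was lost with the left-out library (-0.40).

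At 28 days most of the listed genes that changed were lower than in Control. Li changed in 11 of 34 (32.4%, beside 13.8%), 4 higher and 7 lower, and LiAM in 17 of 34 (50%, beside 24.7%), 4 higher and 13 lower. Cd44 (1.97, adjusted p = 5.212e-05) and Mmp15, a membrane MMP (0.66, adjusted p = 0.009458), were among those that rose in Li. Cd44 was also among those that rose in LiAM (2.25, adjusted p = 9.05e-06). Mmp9, gelatinase B and the closest relative of Mmp2, fell to 6.26 ± 2.25 CPM in LiAM (n = 5), against 13.6 ± 4.44 CPM in Control (n = 6), a log2 fold change of -1.12 (SE 0.25, adjusted p = 0.003225). Other genes that fell in LiAM were Mmp23 (-0.89, adjusted p = 0.001763), the matricellular protein Sparc (-0.84, adjusted p = 0.0003415), elastin or Eln (-0.88, adjusted p = 0.007324), Plat (-0.74, adjusted p = 0.0007267) and Ctsk (-0.88, adjusted p = 0.004211). No listed gene passed between LiAM and Li (0 of 34, beside 0.703%), by edgeR or by DESeq2, and 3 had an unadjusted p under 0.05. The median log2 fold change of the 34 was -0.21 in LiAM against Control and -0.06 in Li, beside medians over all genes of 0.00044 and 0.0072. Without LiAM 4 the 17 genes of LiAM against Control were 11.

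At 6 months 4 of 34 (11.8%, beside 11.3%) changed in labelled Control (Li in the tables) against labelled LiAM (control in the tables), 3 higher and 1 lower. Cd44 (1.51, adjusted p = 6.881e-05) and Mmp15 (0.71, adjusted p = 0.005495) were among the higher genes and Mmp11 was lower (-0.68, adjusted p = 0.007932), the last not with all deposited libraries. Labelled Li (LiAM in the tables) against labelled LiAM gave 6 of 34 (17.6%, beside 12%), 3 higher and 3 lower. Cd44 (1.05, adjusted p = 0.0005196) and Mmp15 (0.77, adjusted p = 0.004417) were among the higher genes, and Timp1 (-0.60, adjusted p = 0.02067), Eln (-0.55, adjusted p = 0.03966) and Vcam1 (-0.56, adjusted p = 0.02728) were lower, none of these 3 without labelled Li 2. For labelled Li against labelled Control only Timp1 passed (1 of 34, 2.94%, beside 3.16%), at 4.59 ± 0.533 CPM in labelled Li (n = 3) and 8.04 ± 1.09 CPM in labelled Control (n = 4), with a log2 fold change of -0.82 (adjusted p = 0.01203). That call did not stand without labelled Li 2 or labelled Li 3, with all deposited libraries or with the replicate block.

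**Figure D4:**
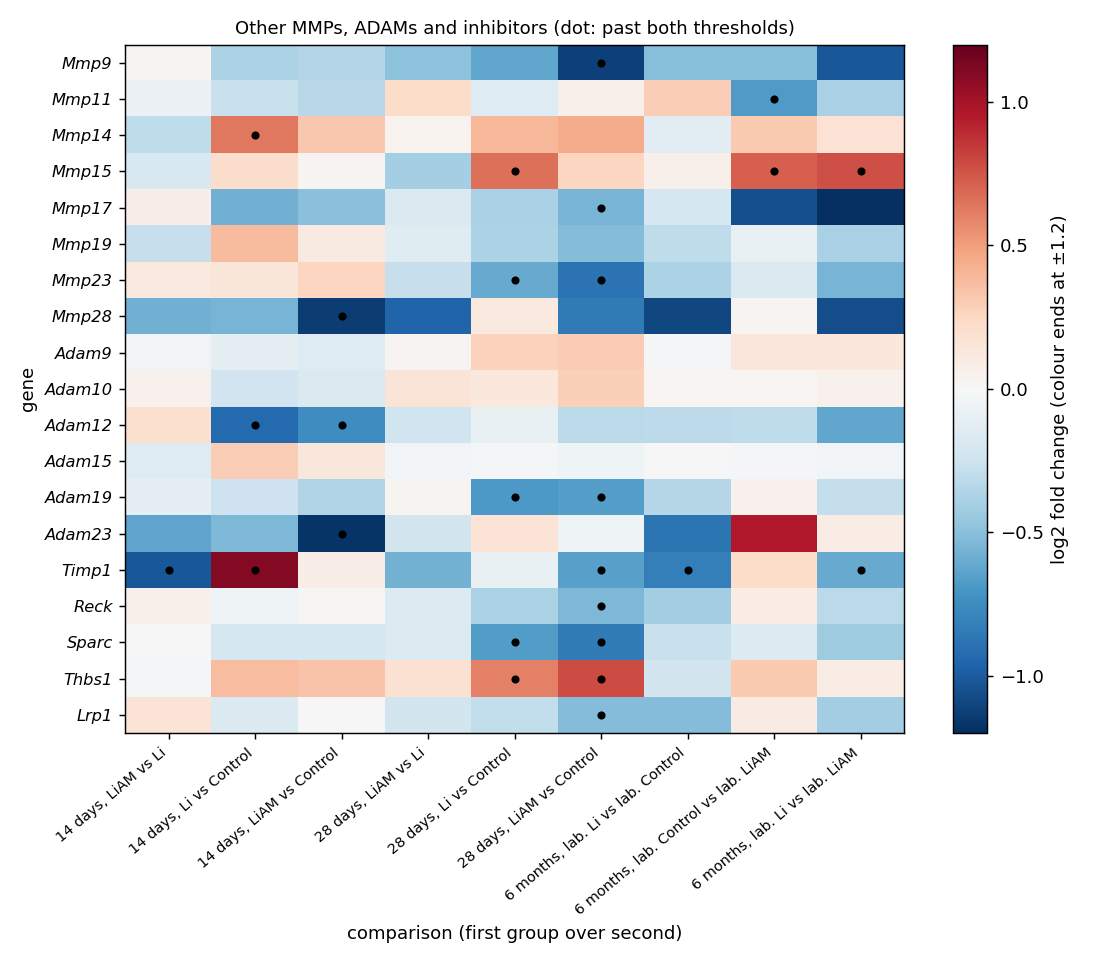
log2 fold changes of the other tested MMPs, ADAMs and inhibitors (rows) in the 9 comparisons (columns), first group over second, with red higher, blue lower and a dot where both thresholds were passed. Timp1 is blue with a dot in LiAM against Li at 14 days (-1.02), and most dots at 28 days are blue.

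The Li effect was compared between 28 and 14 days by an interaction term, which 636 of 15026 genes passed (4.23%). Of 35 listed genes 6 passed, or 3 with all deposited libraries, where Mmp23, Plau and Vcam1 were lost. With the replicate block Mmp23 and Plaur were lost. The Li effect was lower at 28 days for Timp1 (-1.16, adjusted p = 0.002912), Plaur (-1.11, adjusted p = 0.03028) and Plat (-0.82, adjusted p = 0.007774). It was also lower for Mmp23 (-0.74, adjusted p = 0.04265) and Vcam1 (-0.63, adjusted p = 0.04104). It was higher for Plau, urokinase (0.59, adjusted p = 0.01181). The 2 studies were run on separate rats and read in separate tables, so time and study cannot be told apart.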

How the data were processed

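Kidney cortex RNA of male Wistar rats was sequenced from a stranded library kit. Per the labels, the authors processed reads with Cutadapt 0.2.6, HISAT2 2.1.0 on Rnor_6.0 and featureCounts 2.0.0. The deposited count tables hold raw counts per Ensembl gene. The authors also deposited DESeq2 tables per comparison. Their signal column, the mean of size-factor-scaled counts computed by the authors, was used to find the libraries behind each table (median relative difference 6.52e-11, 6.59e-11 and 6.66e-11 in the 14-day, 28-day and 6-month tables). The deposited log2 fold changes of the authors served only to match the 6-month groups with the tables (largest median difference 0.000598, against 0.954 with the labels as given). Their other values were not used. Symbols came from these tables and covered 9237 of 32545 genes.

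For each study, genes passing filterByExpr were fitted over all 3 groups with edgeR 4.0.16 in R 4.3.3 (TMM scaling, quasi-likelihood test, Benjamini-Hochberg adjustment). A gene was called at a log2 fold change of 0.5 or more with an adjusted p below 0.05. Of the 47 libraries 44 were fitted, and no pair of libraries was identical. Levels are CPM on TMM-scaled totals over all genes. DESeq2 1.42.0, its size factors, no filter, all libraries, a replicate block, no mitochondrial genes, 2-group fits and leaving out each library were the alternatives. The fit was tested on simulated data.

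The genes and lists were chosen with earlier results of these data known, so the 28-day test planned for the 3 genes is given only as fold change, SE and whether the thresholds were passed. Named genes included the 3, up to 3 called genes per list and comparison, and the 5 nearest genes of each by r. The called genes named were not always those with the largest change. One listed gene is counted but not reported here by name. Marker lists were summarised by counts and sums. Replicates were separate libraries of the labels, so p-values measure the spread between them. Intervals were not computed for counts, and a count of 0 was read against 3 reads.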

Additional observations from a re-analysis of the deposited data

Results flagged for a closer look

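In 27 groups examined with Dixon's test over all deposited libraries, 3 values lay far from the rest of their group, where chance flags about 1 in 20. Adam8 in LiAM 4 at 14 days was the lowest of 6 at 1.99 CPM. Mmp12 in labelled Li 2 at 6 months (LiAM in the authors' tables) was the highest of 4 at 3.57 CPM. Mmp12 in labelled LiAM 4 at 6 months (control in the tables) was the highest of 4 at 2.01 CPM, and this library is one of the 3 left out of the fits.

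The lithium effect (Li against Control) differed between 28 and 14 days by the interaction test in edgeR for 6 listed genes, given as 28 minus 14 days on the log2 scale. Timp1 differed by -1.16, with 1.10 at 14 days and -0.09 at 28 days. Plaur differed by -1.11, Plat by -0.82, Mmp23 by -0.74 and Vcam1 by -0.63. Plau differed by 0.59. Control means of some of these genes also differed between the 14- and 28-day studies, and their part in the differences was not tested. With all deposited libraries 3 of the listed genes passed, Timp1, Plat and Plaur, and Plaur and Mmp23 did not pass with the replicate block.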

How the results depend on the processing

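The 3 metalloproteinases kept the sign of each difference past the thresholds under every alternative run, while Mmp12 in LiAM against Li at 28 days (-0.12 to 0.23) and in labelled Li against labelled Control (-0.52 to 0.17) changed sign and passed in none. Mmp12 moved with all deposited libraries at 6 months, to 1.39 for labelled Control (Li in the tables) and 1.23 for labelled Li (LiAM in the tables) against labelled LiAM (control in the tables), both under the thresholds. Leaving out each library in turn, Mmp2 ranged from 0.32 to 0.63 in labelled Li against labelled Control and from 2.08 to 2.39 in labelled Li against labelled LiAM. Adam8 in labelled Li against labelled LiAM did not pass without labelled Li 1 or 2 or labelled LiAM 1 or 2 (0.90 to 1.15 over all such fits), and Mmp12 in the same comparison not without labelled Li 2 or labelled LiAM 1, 2 or 3 (1.55 to 2.18). In labelled Control against labelled LiAM, Mmp12 did not pass without labelled LiAM 1 or 2 (1.85 to 2.29).

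Counts of genes past the thresholds moved more. DESeq2 gave 136 for LiAM against Li at 28 days, in place of 62, and 489 for labelled Li against labelled Control, in place of 289, with 4 listed genes. All deposited libraries gave 111 and 0 listed genes for labelled Li against labelled Control, 661 in place of 1095 for labelled Control against labelled LiAM, and 3 listed genes in place of 6 in the comparison of 28 with 14 days. Leaving out each library in turn gave 205 to 358 genes for LiAM against Li at 14 days, 44 to 104 for LiAM against Li at 28 days, 104 to 615 for labelled Li against labelled Control and 689 to 1102 for labelled Control against labelled LiAM. Listed genes ranged from 11 to 19 in LiAM against Control at 28 days, from 0 to 4 in labelled Li against labelled Control and from 3 to 9 in labelled Li against labelled LiAM. The cause was not tested.

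The replicate numbers showed no clear pairing of the samples. Correlations of same-numbered libraries ran from -0.19 to 0.25, and in no comparison did every library correlate best with its own number. Their median was above that of other pairs in some comparisons (0.072 against -0.015 in Li against Control at 14 days). It was below in others (-0.083 against -0.036 in LiAM against Li at 28 days). A partial pairing was therefore not excluded. With the replicate block, labelled Li against labelled Control gave 84 genes and 0 listed genes, and labelled Control against labelled LiAM gave 627 genes. The block took Mmp12 at 6 months under the thresholds against labelled LiAM (1.79 for labelled Control and 1.96 for labelled Li). Few reads limit Mmp12 and Adam8, and 3 or 4 libraries a group limit the 6-month study.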
